A study of Homo sapiens with 6 samples.

Results

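The 10 imprinted genes described here (H19, IGF2, MEG3, DLK1, PEG3, PEG10, MEST, SNRPN, PLAGL1 and GRB10) were chosen by symbol, as well-known imprinted genes, from the 27672 genes measured, and all 10 were found in the table. Polyadenylated RNA was sequenced from human embryonic stem cells (hESCs) of the H9 line and from neuromesodermal progenitor-like (NMP-L) cells made from them, with 3 biological replicates each. H9 is a single established line, so every library has the same genotype, which was not modified. The hESCs (day 0) were untreated and, per the labels, were kept without feeder cells in DEF medium with 30 ng/ml bFGF and Noggin on fibronectin, whereas the study's methods give TESR medium on Geltrex. For the NMP-L cells (day 3) this medium was replaced by N2/B27 medium for 3 days, with CHIR99021 (3 µM), a GSK3 inhibitor that activates Wnt signalling, and a bFGF dose of 20 ng/ml. The study's methods add inhibitors of BMP and TGFβ signalling from day 2 for cells taken on to neural progenitors, and the labels give none for the NMP-L cells.

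Imprinted genes are transcribed mainly from the allele inherited from the mother or from the father, because a methylation mark set in the germ line at an imprinting control region is kept on that allele through development. They lie in clusters, and many of them set the balance between growth and differentiation in the embryo and the placenta. In cultured pluripotent cells imprinted transcripts are often followed as a measure of how stable these marks are. The values here are totals over both alleles, so they give the amount of each transcript and not the allele it came from, and DNA methylation was not analysed here.

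The libraries held from 19454543 to 23036426 expected counts in total, and 3 counts were taken as the detection floor. Levels of different genes are compared in TPM (transcript abundance per library, scaled to the same total in each), which takes transcript length into account, and changes between conditions are log2 fold changes of NMP-L cells over hESCs from edgeR's quasi-likelihood test with TMM scaling, with a standard error (SE) and an adjusted p (Benjamini-Hochberg over 15517 tested genes). The labels held for T and NANOG. T, the mesodermal factor that marks NMPs, had 0, 0 and 2 counts at day 0 and 537, 293 and 629 at day 3. NANOG, a pluripotency factor, fell from between 86.1 and 98.7 TPM to between 15.9 and 17.2 TPM. POU5F1, also a pluripotency factor, fell less, from a mean of 1990 TPM in hESCs to 1127 TPM in NMP-L cells (log2 fold change -0.92). SOX2, at a mean of 219 TPM in hESCs and 245 TPM in NMP-L cells, did not differ at an adjusted p under 0.05 (log2 fold change 0.06, adjusted p = 0.53). In such bulk samples fewer cells of a type and less RNA per cell cannot be told apart.

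Of the 10 imprinted genes 9 passed the expression filter and 6 differed between the conditions at an adjusted p under 0.05, which was 55.8% of all tested genes. DLK1, PLAGL1, PEG10 and GRB10 were higher in NMP-L cells (29.1% of all tested genes were), and SNRPN and PEG3 were lower (26.7% were). With scaling to GAPDH 6 were higher and 1 lower, and with scaling to HPRT1 1 was higher and 3 lower, scalings that moved the median gene by 0.56 and -0.30 on the log2 scale. H19, IGF2 and MEST did not pass the threshold, and MEG3 was near 0 in both states. The median log2 fold change of the 9 tested genes was 0.24, beside 0.03 over all tested genes. Only SNRPN and DLK1 passed the threshold with a change of at least 2-fold, as did 18.6% of all tested genes (9.18% lower and 9.38% higher). The libraries of the conditions did not overlap, after TMM scaling, for 7 of the 9, and for 61.6% of all tested genes.

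**Figure D1:**
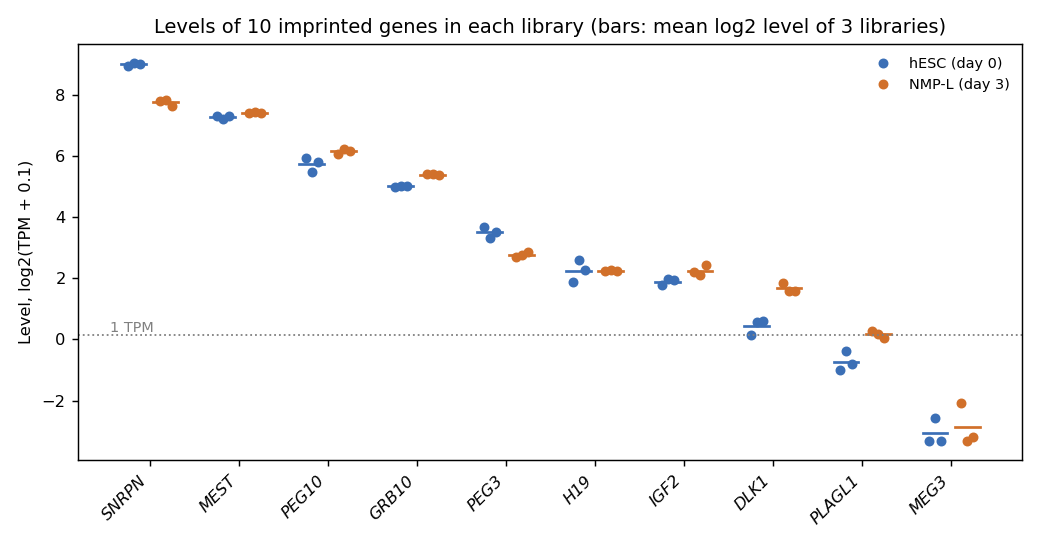
Level of each of the 10 imprinted genes as log2(TPM + 0.1), with a point for each library and a bar at the mean log2 level of the 3 libraries of a condition. SNRPN is the highest gene in both conditions and lower in NMP-L cells, while MEG3 lies under 0.14 TPM in every library but 1, which is at 0.14 TPM.

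The genes differed widely in level. In hESCs SNRPN was the most abundant at 512 ± 17.7 TPM (SD, n = 3), followed by MEST at 155 ± 5.56, and PEG10 at 53.7 ± 8.30 TPM. GRB10 lay between 31.4 and 32.4 TPM. PEG3 followed at 11.3 ± 1.35 TPM. H19 (4.76 ± 1.18 TPM) and IGF2 (3.62 ± 0.278 TPM) were neighbours in this order whose libraries overlapped. DLK1 (1.28 ± 0.234 TPM), PLAGL1 (0.513 ± 0.140 TPM) and MEG3 (0.0233 ± 0.0404 TPM) were the lowest. In NMP-L cells the order was the same but for H19 and IGF2, which changed places and overlapped again, and SNRPN was 1.27-fold above MEST in place of 3.29-fold. SNRPN made up between 64.5% and 68.0% of the summed TPM of the 10 genes in hESC libraries and between 39.7% and 42.7% in NMP-L libraries.

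The transcription start regions shown here, from RefSeq on GRCh38.p14, belong to 4 of the 10 genes: SNRPN, which changed most, MEG3, which was near 0, PLAGL1, which rose from a low level, and MEST, which was high and did not pass the threshold. Each window runs 5′ to 3′ on the strand of its gene, from 250 bases before a start to 50 after it. Capitals mark TGCCGC on either strand (GCGGCA on the strand shown), the sequence that the imprint guardian ZFP57 recognises when it is methylated.
SNRPN and SNURF, chr15:24954737-24955036, plus strand: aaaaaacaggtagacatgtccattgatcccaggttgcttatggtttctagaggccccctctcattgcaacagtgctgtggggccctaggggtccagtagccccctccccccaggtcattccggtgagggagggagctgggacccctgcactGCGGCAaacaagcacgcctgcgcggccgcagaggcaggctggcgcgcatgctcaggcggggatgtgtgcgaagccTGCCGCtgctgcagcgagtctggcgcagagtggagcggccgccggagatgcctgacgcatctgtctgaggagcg
MEG3, chr14:100825858-100826157, plus strand: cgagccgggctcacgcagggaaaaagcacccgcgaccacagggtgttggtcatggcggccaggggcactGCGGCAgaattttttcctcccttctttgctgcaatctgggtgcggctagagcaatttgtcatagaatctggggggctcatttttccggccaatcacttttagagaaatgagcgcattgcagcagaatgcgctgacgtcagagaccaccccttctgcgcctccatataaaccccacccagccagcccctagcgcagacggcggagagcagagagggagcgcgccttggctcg
PLAGL1, chr6:144008210-144008509, minus strand: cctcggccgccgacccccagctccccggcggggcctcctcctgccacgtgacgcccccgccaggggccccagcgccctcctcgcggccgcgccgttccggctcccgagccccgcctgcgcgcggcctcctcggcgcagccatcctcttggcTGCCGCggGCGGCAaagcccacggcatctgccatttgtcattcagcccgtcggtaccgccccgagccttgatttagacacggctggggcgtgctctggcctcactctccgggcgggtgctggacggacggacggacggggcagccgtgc
MEST, chr7:130491835-130492134, plus strand: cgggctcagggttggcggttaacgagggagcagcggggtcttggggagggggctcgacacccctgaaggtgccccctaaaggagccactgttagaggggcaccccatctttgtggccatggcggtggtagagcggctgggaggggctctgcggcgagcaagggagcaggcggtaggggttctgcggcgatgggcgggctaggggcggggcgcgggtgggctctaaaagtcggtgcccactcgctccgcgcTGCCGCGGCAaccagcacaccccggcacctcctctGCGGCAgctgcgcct
The table held 23 windows for 6 of the 10 genes (GRB10, H19, MEG3, MEST, PLAGL1 and SNRPN), many of them overlapping, and for each gene shown the window with the most matches was taken, or the earliest where several were equal. IGF2, DLK1, PEG3 and PEG10 had no entry. The motif was in 11 of the 23 windows and in 16.7% of all 34943 distinct windows, and 2.75% of all windows held 2 or more matches. Overlapping windows share matches, as the 3 windows of MEG3 do, so the 11 are not separate sites and the shares were not tested. PLAGL1 and GRB10 had the motif in 1 of 5 windows each. The windows shown held 2 matches for SNRPN and SNURF, 1 for MEG3, 2 for PLAGL1 and 3 for MEST, and 18, 19, 39 and 25 CpG dinucleotides beside a median of 14 over all windows. The H19 window held 0 matches and 6 CpG dinucleotides. A match is a description of the sequence and not a binding site.

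SNRPN, which encodes the SmN protein of spliceosomal small nuclear ribonucleoproteins and is transcribed from the paternal allele, lies on chromosome 15 of GRCh37 from 25068784 to 25223870 on the plus strand, in the region deleted or silenced in Prader-Willi syndrome. Its level was 492, 525 and 518 TPM in the 3 hESC libraries and 221, 227 and 199 TPM in the 3 NMP-L libraries. All NMP-L libraries were well below all hESC libraries. The gene was 2.53-fold lower in NMP-L cells (log2 fold change -1.34, SE 0.09, adjusted p = 2.5e-07). SNRPN stayed past the threshold in all 15 alternatives tried, between -1.64 with scaling to HPRT1 and -0.78 with scaling to GAPDH.

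Of the other paternally expressed transcripts listed for this region, SNURF, SNHG14, IPW, MAGEL2 and NDN were tested. All 5 were called lower in NMP-L cells, beside 26.7% of all tested genes. Not all of them are independent, since SNURF shares the transcript of SNRPN, and SNHG14 and IPW are of the same unit. The falls differed in degree, and the call for NDN did not hold in every alternative. SNURF, an upstream reading frame that shares the transcript of SNRPN, fell from 418, 446 and 434 TPM to 193, 193 and 173 TPM (log2 fold change -1.33, SE 0.09, adjusted p = 2.3e-07). SNURF lies wholly inside SNRPN on the same strand, both have fractional expected counts, and the ratio of their TPM was 1.18 ± 0.00938 in hESCs and 1.16 ± 0.0145 in NMP-L cells (SD, n = 3 each), so their values are not independent. SNHG14, the long noncoding host transcript of the small nucleolar RNAs of the region, fell from between 53.7 and 67.3 TPM to between 24.7 and 25.8 TPM (log2 fold change -1.40, SE 0.08, adjusted p = 1.1e-07). IPW, a noncoding transcript of the same unit, fell from 74.5, 69.0 and 68.0 TPM to 22.9, 22.3 and 28.0 TPM (log2 fold change -1.63, SE 0.09). SNHG14 and IPW have fractional counts too, which marks reads shared with other entries.

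MAGEL2 and NDN, intronless genes upstream and both of the MAGE family, moved by unequal amounts. MAGEL2, which regulates protein recycling from endosomes, fell from 3.99, 3.89 and 4.22 TPM to 0.85, 1.16 and 1.21 TPM (log2 fold change -2.01, SE 0.16, adjusted p = 1.2e-06). NDN, which encodes the growth suppressor necdin, was at 29.0, 27.2 and 29.4 TPM and at 24.9, 24.2 and 25.2 TPM (log2 fold change -0.30, SE 0.09, adjusted p = 0.018). The call of NDN was lost with library size as the only scaling, with scaling to GAPDH, with the replicate block (adjusted p = 0.076) and without NMP-L replicate 2. MKRN3 and NPAP1, also paternally expressed, were below the filter and not tested, with at most 1 and 4 counts in any library.

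UBE3A, the ubiquitin ligase whose maternal copy is lost in Angelman syndrome and which is silenced on the paternal allele only in neurons, was at 71.2, 49.6 and 51.9 TPM in hESCs and at 58.5, 66.2 and 82.9 TPM in NMP-L cells. The libraries overlapped, and the log2 fold change of 0.16 (95% interval -0.12 to 0.44, adjusted p = 0.30) did not pass the threshold, although it did with scaling to GAPDH and without hESC replicate 1. UBE3A lies from 25578875 to 25684198 on the minus strand, and 86609 bases of it are covered by SNHG14 on the opposite strand. This overlap is of whole gene spans, introns included, and UBE3A had whole counts in every library, so none of its reads were divided with SNHG14. Whether the counting used strand is not given in the sources used here. Without it, reads from the overlap could have been counted for the wrong gene of the 2. A further 4 transcripts of the region were chosen after their values were seen. PWAR6, PWAR5 and PWARSN, noncoding entries of the region, had log2 fold changes of -1.92, -1.39 and -1.58 (SE 0.18, 0.29 and 0.22). PWAR5 varied widely between the hESC libraries (62.4, 22.9 and 33.7 TPM), and its call was lost with scaling to GAPDH (-0.83, adjusted p = 0.067). ATP10A, a phospholipid transporter gene beyond UBE3A, fell from 42, 63 and 40 counts to 10, 18 and 11 counts (log2 fold change -2.10, SE 0.32). PWAR5 and PWAR6 lie wholly inside SNHG14 on the same strand.

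**Figure D2:**
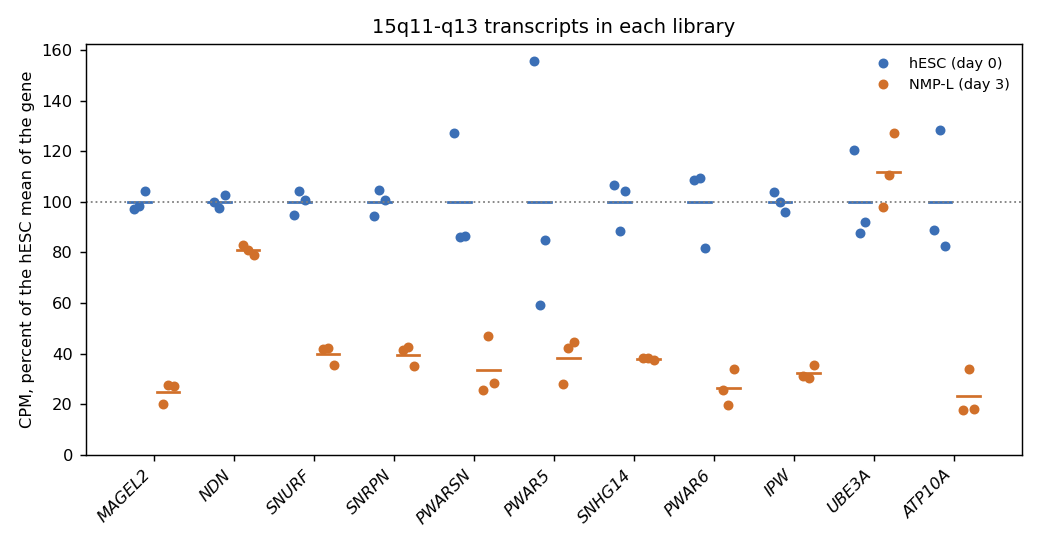
CPM (library-scaled counts after TMM scaling) of transcripts of the SNRPN region in each library, as a percentage of the gene's mean over the hESC libraries, with a bar at the mean of each condition. SNRPN, SNURF and SNHG14 lie between 35.1% and 42.4% in NMP-L libraries, NDN between 79.2% and 83.2%, and UBE3A between 97.9% and 127%.

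On chromosome 14, DLK1 was measurable and MEG3 was not. DLK1, a paternally expressed transmembrane protein related to Notch ligands that holds back differentiation, lies from 101192042 to 101204561 on the plus strand. It had 43, 64 and 63 counts at day 0 and 173, 134 and 144 at day 3, or 1.01, 1.40 and 1.43 TPM and 3.53, 2.90 and 2.91 TPM. Every NMP-L library was above every hESC library. DLK1 was 2.27-fold higher in NMP-L cells (log2 fold change 1.18, SE 0.18, adjusted p = 2.0e-04), the largest rise among the 10 genes, and it was called higher in all 15 alternatives, between 0.88 and 1.74.

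MEG3, a maternally expressed long noncoding RNA of the same cluster (101245747 to 101327368, plus strand), had 0, 1 and 0 counts at day 0 and 2, 0 and 1 at day 3. All 6 libraries were at or under the floor of 3 counts, which corresponds to between 0.130 and 0.154 CPM (counts scaled to the library total), so that MEG3 RNA could not be detected at this depth in either state and no fold is given. The other genes of the cluster were similarly low. RTL1, a retrotransposon-derived gene, had at most 4 counts, MEG9 at most 2, the deiodinase gene DIO3 at most 3, and MEG8 had 0 counts in all 6 libraries. Among the 10 imprinted genes MEG3 was the only gene under 1 TPM in all 6 libraries, while PLAGL1 was under 1 TPM in all 3 hESC libraries and in 1 NMP-L library.

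On chromosome 11, H19 and IGF2 share enhancers and a control region bound by CTCF on the maternal allele. H19, a maternally expressed long noncoding RNA that hosts miR-675 (2016396 to 2025782, minus strand), had 54, 90 and 67 counts at day 0 and 63, 60 and 65 at day 3. On the TPM scale it was at 3.60, 5.96 and 4.71 and at 4.61, 4.68 and 4.57, so that the hESC libraries enclosed the NMP-L libraries, whereas after TMM scaling of the counts every NMP-L library lay below every hESC library. Its log2 fold change was -0.39 (SE 0.20, 95% interval -0.84 to 0.05, adjusted p = 0.12). The estimate rests in part on hESC replicate 2, the highest library, since without it the log2 fold change was -0.19, and without hESC replicate 1, the lowest, it was -0.56 (adjusted p = 0.035). H19 was also called lower with scaling to HPRT1 (-0.70, adjusted p = 0.034), and its direction turned with scaling to GAPDH (0.17).

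IGF2, the paternally expressed fetal growth factor (2150342 to 2179621, minus strand), had 141, 177 and 165 counts at day 0 and 221, 190 and 257 at day 3, or 3.31, 3.84 and 3.72 TPM and 4.55, 4.21 and 5.29 TPM. The TPM of NMP-L libraries lay just above those of hESC libraries, whereas the CPM values after TMM scaling overlapped. The log2 fold change of 0.24 (SE 0.13, 95% interval -0.04 to 0.52, adjusted p = 0.14) did not pass the threshold, and it was 0.80 (adjusted p = 0.0015) with scaling to GAPDH. The ratio of IGF2 to H19 in TPM was 0.785 ± 0.138 in hESCs and 1.01 ± 0.131 in NMP-L cells (SD, n = 3 each), with overlapping libraries.

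In the neighbouring domain under KCNQ1OT1, the paternally expressed antisense RNA that silences it, 2 of 5 tested genes differed, beside 55.8% of all tested genes. KCNQ1OT1 itself was low (at most 0.14 TPM, 62 to 128 counts) and was lower in NMP-L cells (log2 fold change -0.62, SE 0.19, adjusted p = 0.016), a call lost without hESC replicate 2, without hESC replicate 3 and without NMP-L replicate 2, and with scaling to GAPDH. Its whole span of 102696 bases lies over that of KCNQ1, introns included, on the opposite strand. Both had whole counts in every library, so no reads were divided between them. Without strand in the counting, reads from the overlap could still have been counted for the wrong gene. SLC22A18, a maternally expressed membrane transporter, rose from 7.07, 6.96 and 7.80 TPM to 14.5, 16.6 and 14.9 TPM (log2 fold change 0.96, SE 0.13, adjusted p = 7.4e-05). CDKN1C, the cell cycle inhibitor p57, was at 18.2, 22.9 and 18.1 TPM and at 23.9, 19.7 and 18.1 TPM (log2 fold change -0.03, adjusted p = 0.86). PHLDA2, a regulator of placental growth, and the channel gene KCNQ1 did not pass the threshold either (log2 fold changes -0.10 and 0.10).

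On chromosome 7, PEG10 rose slightly together with its neighbour SGCE. PEG10, a paternally expressed gene derived from a retrotransposon and needed for the placenta (94285637 to 94299007, plus strand), was at 60.6, 44.5 and 55.9 TPM in hESCs and at 66.8, 74.0 and 71.9 TPM in NMP-L cells. hESC replicate 2 was the lowest library by some distance. PEG10 was 1.24-fold higher (log2 fold change 0.31, SE 0.10, adjusted p = 0.022), but the call was lost without hESC replicate 2 (0.20, adjusted p = 0.059), without NMP-L replicate 2 (0.26, adjusted p = 0.091) and with scaling to HPRT1 (0.01). SGCE, the sarcoglycan gene that starts beside PEG10 on the opposite strand and overlaps it by 248 bases, rose from 20.9, 20.8 and 20.1 TPM to 29.4, 29.8 and 33.2 TPM (log2 fold change 0.48, SE 0.10, adjusted p = 0.0015), though it too was not called with scaling to HPRT1. PPP1R9A, further along, did not pass the threshold (95% interval of the log2 fold change -0.27 to 0.27, adjusted p = 0.99).

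MEST, a paternally expressed hydrolase of the mesoderm (130126012 to 130146306, plus strand), was at 158, 149 and 159 TPM in hESCs and at 168, 171 and 168 TPM in NMP-L cells. On the TPM scale the NMP-L libraries were slightly above the hESC libraries, and after TMM scaling of the counts the conditions overlapped. The log2 fold change was 0.04 (SE 0.07, 95% interval -0.12 to 0.20, adjusted p = 0.70), and 94.7% of all tested genes had a larger change in either direction. With scaling to GAPDH MEST was called higher (0.59, adjusted p = 0.00043). COPG2, which overlaps MEST by 228 bases on the opposite strand, had a log2 fold change of 0.08 (adjusted p = 0.43).

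GRB10, an adaptor that inhibits signalling from insulin and IGF receptors and whose imprinting depends on the tissue and the promoter (50657760 to 50861159, minus strand), was at 31.4, 32.4 and 32.1 TPM in hESCs and at 41.9, 42.2 and 41.3 TPM in NMP-L cells. The libraries of each condition lay close together and the conditions did not overlap. GRB10 was 1.22-fold higher in NMP-L cells (log2 fold change 0.29, SE 0.08, adjusted p = 0.0092), with an adjusted p of 0.047 with the replicate block and a log2 fold change of -0.01 with scaling to HPRT1.

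The 2 zinc finger factors moved in opposite directions. PEG3, a paternally expressed regulator of growth and maternal behaviour on chromosome 19 (57321445 to 57352096, minus strand), was at 12.6, 9.89 and 11.4 TPM in hESCs and at 6.33, 6.72 and 7.23 TPM in NMP-L cells. All NMP-L libraries were below all hESC libraries. PEG3 was 1.78-fold lower (log2 fold change -0.83, SE 0.10, adjusted p = 3.1e-05), and with scaling to GAPDH its fall of 0.27 was not called (adjusted p = 0.11). Its gene body lies wholly inside that of ZIM2 on the same strand, and both have fractional counts, but ZIM2 had at most 27 counts against at least 562 for PEG3.

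PLAGL1, a paternally expressed factor that arrests the cell cycle and is linked to transient neonatal diabetes (chromosome 6, 144261437 to 144385736, minus strand), had 11, 20 and 14 counts at day 0 and 37, 32 and 29 at day 3. These are 0.40, 0.67 and 0.47 TPM and 1.11, 1.04 and 0.93 TPM, low in both conditions but without overlap. PLAGL1 was 1.86-fold higher (log2 fold change 0.89, SE 0.29, adjusted p = 0.021). The call rests on few counts and was lost in 6 of 15 alternatives, with DESeq2 (adjusted p = 0.075), with scaling to HPRT1 (0.18) and without hESC replicate 1 (0.090), hESC replicate 3 (0.084), NMP-L replicate 1 (0.072) or NMP-L replicate 2 (0.053), while its direction was kept in all 15. HYMAI, the noncoding RNA that starts at the imprinted promoter of PLAGL1, had at most 1 count.

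**Figure D3:**
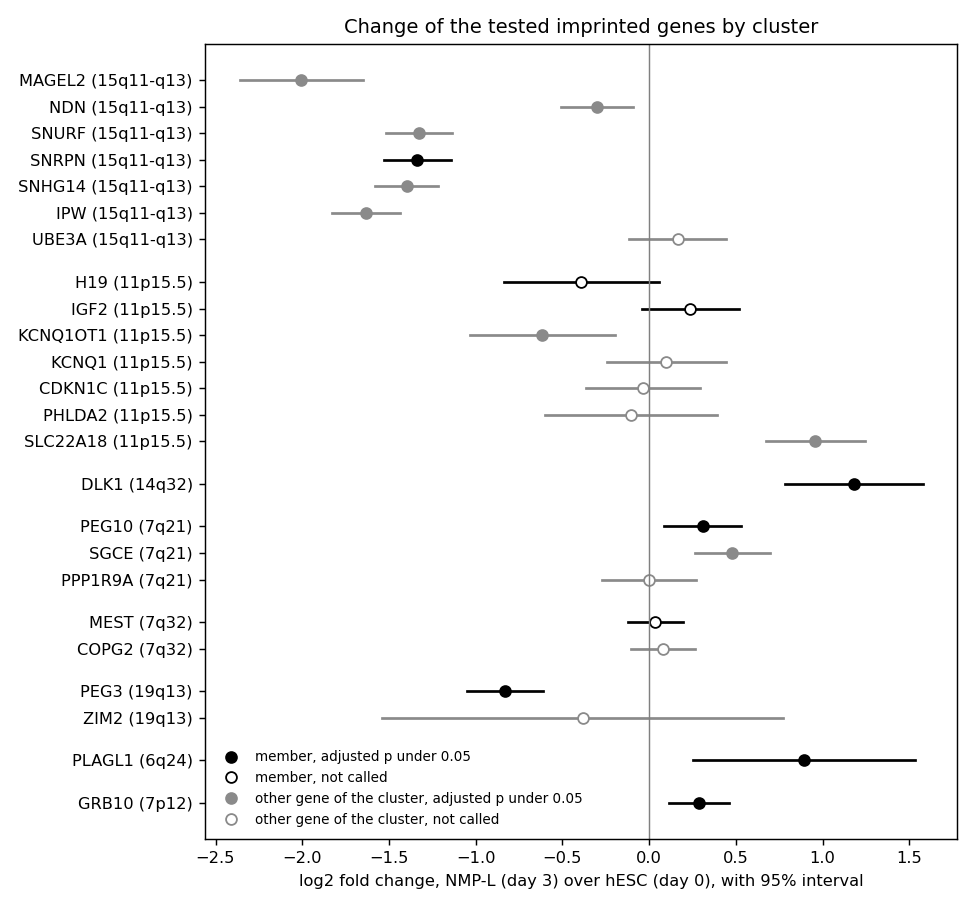
Log2 fold change of NMP-L cells over hESCs for the tested imprinted genes, grouped by cluster, with 95% intervals (black, the 10 genes; grey, other genes of their clusters; filled, adjusted p under 0.05). SNRPN at -1.34 lies with SNURF, SNHG14 and IPW, and DLK1 at 1.18 has the largest rise of the 10, while with scaling to HPRT1 GRB10, IGF2 and MEST lie under 0.

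By the parental allele usually expressed, 5 of the 7 paternally expressed genes differed, 3 higher and 2 lower, and of the 2 maternally expressed genes H19 was tested and did not pass the threshold, beside 55.8% of all tested genes. The difference between these classes was not tested. The clusters of the 10 genes hold 33 further genes on the list used, of which 32 were in the table. Of the 15 that could be tested 8 differed, a share near the 55.8% of all tested genes, 2 higher (SLC22A18 and SGCE) and 6 lower, and with scaling to GAPDH 7 were higher and 4 lower. The 6 lower were KCNQ1OT1 and 5 genes of the SNRPN region. A further 17 were below the filter, 11 of them at or under 3 counts in all 6 libraries, among them INS, MIR483, CPA4 and USP29 at 0 counts in all 6.

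Of 18 imprinted genes elsewhere in the genome 17 were in the table, 13 were tested and 5 differed (55.8% of all tested genes did), 1 higher and 4 lower, while with scaling to GAPDH 6 were higher and 1 lower. The higher gene was IGF2R, which is also on the list of insulin-like growth factor genes described next. NLRP2, a maternal-effect gene of the subcortical complex, fell from 393, 408 and 417 TPM to 170, 166 and 164 TPM (log2 fold change -1.38, SE 0.07, adjusted p = 4.4e-08), although it has fractional counts. INPP5F, a phosphoinositide phosphatase with an imprinted short form, fell by 0.66 on the log2 scale, NNAT, which encodes neuronatin, by 0.60, and GNAS, which encodes the G protein subunit that activates adenylyl cyclase, by 0.42. These 3 falls were not called with scaling to GAPDH. GNAS was the most abundant at 900 ± 32.7 TPM in hESCs and 732 ± 33.6 TPM in NMP-L cells (SD, n = 3 each).

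The genes through which IGF2 and GRB10 act were described from a list of 16 that includes both. Of the 13 tested 10 differed, 5 higher and 5 lower, beside 55.8% of all tested genes, and with scaling to GAPDH 8 were higher and 3 lower. Among receptors, IGF2R, which clears IGF2 by carrying it to lysosomes, rose from 26.8, 26.4 and 27.0 TPM to 47.9, 50.4 and 47.4 TPM (log2 fold change 0.77, SE 0.07, adjusted p = 5.1e-06). IGF1R, the receptor that signals for IGF2 (named after its values were seen), fell from 43.4, 35.6 and 43.5 TPM to 29.4, 30.2 and 28.7 TPM (log2 fold change -0.57, SE 0.09, adjusted p = 2.0e-04), and this call was lost with scaling to GAPDH. The insulin receptor gene INSR fell from between 21.9 and 24.6 TPM to between 12.8 and 13.6 TPM (log2 fold change -0.93, SE 0.08).

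The largest changes of this list were in binding proteins, which bind IGFs outside the cell, but not all of them changed. IGFBP4 (named after its values were seen) was at 128 ± 9.75 TPM in hESCs and 136 ± 5.91 TPM in NMP-L cells (SD, n = 3 each). It did not pass the threshold (log2 fold change -0.009, adjusted p = 0.94). IGFBP2 was the most abundant gene of the list in every library and fell from 821, 627 and 890 TPM to 292, 264 and 254 TPM (log2 fold change -1.63, SE 0.12). IGFBP6 fell from 10.8, 10.0 and 10.3 TPM to 3.56, 1.94 and 1.92 TPM (-2.16, SE 0.25). IGFBP5 rose from 4.06, 2.59 and 3.56 TPM to 18.5, 14.1 and 19.5 TPM (2.25, SE 0.16), and IGFBP3 rose from between 10.4 and 12.5 TPM to between 33.8 and 38.0 TPM (1.58, SE 0.11). GRB14, the adaptor related to GRB10, rose by a log2 fold change of 1.23 (SE 0.13). IGF1, INS and IGFBP1 had 0 counts in all 6 libraries.

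**Figure D4:**
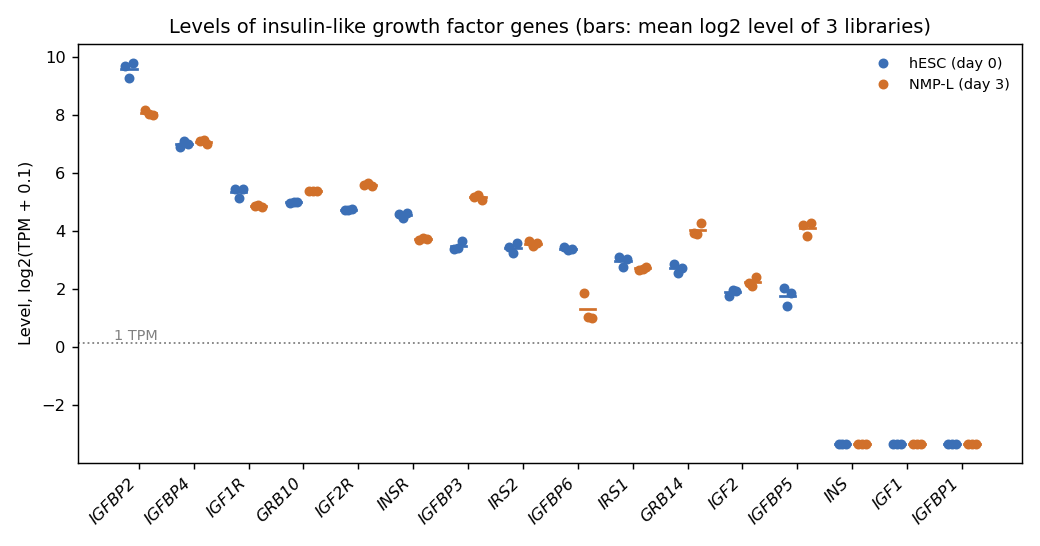
Level of the 16 insulin-like growth factor genes as log2(TPM + 0.1), with a point for each library and a bar at the mean log2 level of a condition, ordered by the hESC level. IGFBP2 is highest and lower in NMP-L cells, IGFBP5, IGFBP3 and IGF2R are higher in NMP-L cells, and IGF1, INS and IGFBP1 are at 0 in every library.

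A list of 16 genes for proteins that read, copy or erase the methylation marks of imprinted regions was described in the same way. All 16 were tested and 14 passed the threshold, 5 of them with a rise (29.1% of all tested genes rose) and 9 with a fall (26.7% fell), beside 55.8% of all tested genes in either direction, while scaling to GAPDH gave 8 rises and 4 falls and scaling to HPRT1 gave 2 rises and 9 falls. ZFP57, the zinc finger protein that holds methylation at imprinting control regions by binding the methylated form of the sequence shown in capitals above, had 17, 21 and 24 counts at day 0 and 1, 0 and 0 at day 3. Because all NMP-L libraries were under the floor, the fold is a bound, and ZFP57 was lower at day 3 by at least 8.04-fold (adjusted p = 1.6e-05). ZNF445, TRIM28, DNMT1 and CTCF were named for their roles after their values were seen. ZNF445, which also binds imprinting control regions, was at 12.9, 11.3 and 12.4 TPM and at 14.3, 13.2 and 13.8 TPM (log2 fold change 0.08, adjusted p = 0.46). TRIM28, the corepressor that both recruit, fell from 674, 763 and 763 TPM to 513, 509 and 466 TPM (log2 fold change -0.66, SE 0.09), a call lost with scaling to GAPDH.

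DPPA3, which protects methylation in the early embryo, had 37, 35 and 32 counts at day 0 and 1, 1 and 0 at day 3, and was at least 13.5-fold lower (adjusted p = 2.1e-06). DNMT3B, a de novo methyltransferase and the most abundant gene of the list in hESCs, fell from 1324, 1366 and 1329 TPM to 439, 442 and 433 TPM (log2 fold change -1.71, SE 0.07, adjusted p = 5.1e-09). DNMT3L, its cofactor, fell from 17, 22 and 15 counts to 6, 5 and 6 counts (-1.87, SE 0.35). TET2, a dioxygenase that oxidises methylcytosine, rose from 1.14, 0.59 and 0.93 TPM to 2.61, 2.67 and 2.87 TPM (log2 fold change 1.53, SE 0.18), and CTCFL, a paralogue of CTCF, rose from between 1.61 and 1.68 TPM to between 2.92 and 4.13 TPM (1.09, SE 0.17). The other TET genes, named after their values were seen, were more abundant. TET1 fell from a mean of 30.4 TPM to 21.7 TPM (log2 fold change -0.58, adjusted p = 0.0038), a call lost with scaling to GAPDH. TET3 rose from a mean of 6.93 TPM to 9.34 TPM (0.33, adjusted p = 0.012), a call lost with scaling to HPRT1 and without hESC replicate 2. DNMT1, the maintenance methyltransferase, was at 75.2, 86.0 and 79.6 TPM and at 76.1, 69.8 and 76.8 TPM, and its small fall (log2 fold change -0.21, adjusted p = 0.047) lost its call in 10 of 15 alternatives. CTCF was at 71.3, 66.8 and 69.1 TPM and at 69.5, 68.6 and 74.0 TPM (log2 fold change -0.06, adjusted p = 0.52).

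**Figure D5:**
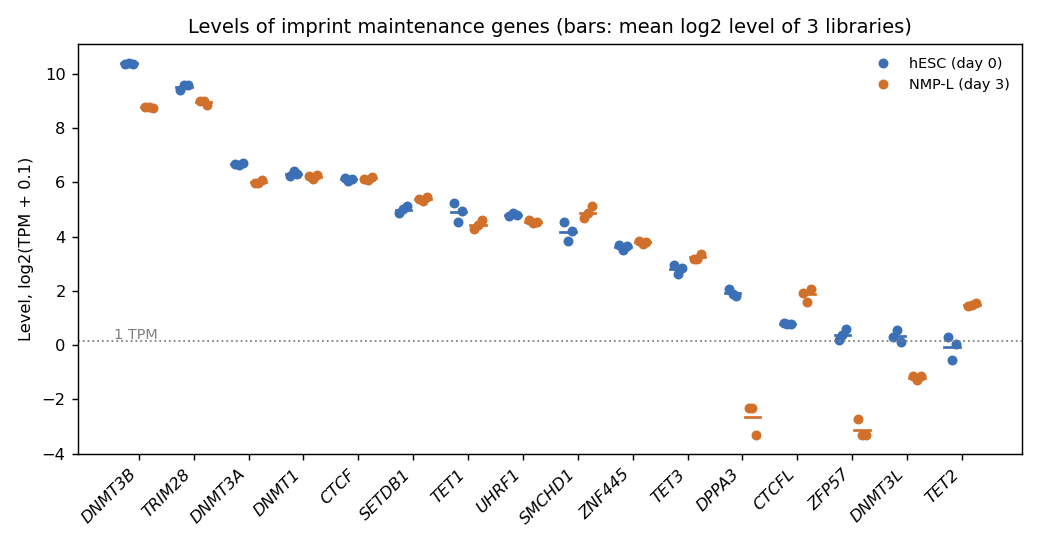
Level of the 16 imprint maintenance genes as log2(TPM + 0.1), with a point for each library and a bar at the mean log2 level of a condition, ordered by the hESC level. ZFP57 and DPPA3 lie near the bottom of the scale in NMP-L cells, with at most 1 count in any library, and DNMT3B falls from the highest level in hESCs, while CTCF overlaps between the conditions.

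Because some imprinted genes are highly expressed in extraembryonic tissue, endoderm or mesoderm, markers of these cells were measured beside them. The summed level of 8 endoderm markers lay between 1.31 and 2.28 TPM in hESC libraries and between 0.490 and 0.830 TPM in NMP-L libraries, with SOX17 at 0 or 1 count and TTR at 0 in all 6. All of them were below the filter. AFP went from 4, 11 and 15 counts to 0, 0 and 0, and APOA1 from 7, 5 and 9 to 2, 2 and 2. GATA6 (3, 1 and 2, then 7, 6 and 3), HNF4A (1, 1 and 1, then 2, 3 and 3) and FOXA1 (0, 0 and 0, then 0, 1 and 4) went the other way. GATA4 overlapped between the conditions. The summed level of 9 trophoblast markers in the table was between 6.26 and 7.16 TPM in hESCs and between 14.6 and 18.7 TPM in NMP-L cells. KRT7, which other epithelia also express, made up nearly all of it (14.2 to 18.1 TPM in NMP-L cells) and was the only marker of this list tested (log2 fold change 1.23, SE 0.14), while PSG3 and VGLL1 were at 0 and CGA, HAND1 and ELF5 had at most 3 counts. GATA3 (3, 2 and 6 counts at day 0, 13, 5 and 7 at day 3) and TP63 (0, 1 and 0, then 3, 5 and 3) were below the filter. For TP63 every NMP-L library had more counts than every hESC library, whereas for GATA3 the conditions overlapped. TFAP2A had at most 4 counts. The summed level of 9 mesoderm markers fell from between 149 and 156 TPM to between 43.8 and 49.6 TPM, most of it KDR. KDR was already at between 131 and 142 TPM in the hESC libraries, so this sum mainly follows KDR and not the list. MESP2 was tested and did not pass the threshold (log2 fold change 0.18, adjusted p = 0.70). Within that list TBX6, TCF15 and KDR were called lower, while 3 markers below the filter had more counts at day 3: MSGN1 went from 0, 0 and 0 to 7, 4 and 2, MESP1 from 1, 0 and 4 to 6, 8 and 5, and FOXF1 from 6, 2 and 3 to 8, 11 and 16. MEOX1 and HAND2 had at most 1 count. The part of these markers in the changes of the imprinted genes was not tested.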

How the data were processed

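Polyadenylated RNA from 3 hESC and 3 NMP-L samples was sequenced as single-end reads of 76 bases. The submitters' processing notes name cutadapt (version 1.9.1), STAR (version 2.5.2a), RSEM (version 1.3.0), DESeq2 (version 1.12.3) and the hg19 build, and the study's text does not describe these libraries. The authors deposited RSEM expected counts and TPM for each gene and library, without further filtering of the 27672 genes. Expected counts need not be whole, because RSEM divides reads that match several entries, and 8.44% of genes had fractional values.

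Here expected counts were rounded and tested with edgeR (version 4.0.16, R version 4.3.3) by the quasi-likelihood test after filterByExpr (minimum count 10) and TMM scaling, with a threshold of 0.05 on the Benjamini-Hochberg adjusted p over 15517 genes. Samples were grouped by their titles. The labels call the libraries biological replicates without naming separate cultures, so p-values measure the spread between these samples. With 3 against 3 samples the exact two-sided permutation test of a single gene cannot go below 0.1. The floor and its intervals cover counting error only. The test was checked on simulated data. Deposited TPM values were used as levels only. Gene positions are from GENCODE release 44 on GRCh37, and start regions from RefSeq on GRCh38.p14.

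The 10 genes and the other gene lists were chosen with earlier results of these data known. Named in the text were the 10 genes, genes of their clusters with at least 1 TPM in any library, up to 6 called genes of each other list by size of change, and marker and scaling genes, with exceptions stated or counted at or near 0. IGF2AS, MCTS2P and CGB were not matched in the table. Alternatives were other scalings, DESeq2 (version 1.42.0), other filters, a replicate block, leaving out each library, and other pseudocounts.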

Additional observations from a re-analysis of the deposited data

How the results depend on the processing

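The count of imprinted genes past the threshold was 6 of 9, and between 4 and 7 under the alternatives tried. DLK1 and SNRPN were called in the same direction in all 15 of them. Directions turned only with scaling to a single gene. H19 was at a log2 fold change of 0.17 with scaling to GAPDH, and with scaling to HPRT1 IGF2 was at -0.075, MEST at -0.26 and GRB10 at -0.013. GAPDH itself had a log2 fold change of -0.55 under TMM scaling. For HPRT1 it was 0.28 (adjusted p = 0.069), with hESC libraries spread from 40.3 to 56.2 CPM. Over all tested genes 52.1% had a higher estimate in NMP-L cells, 87.5% with scaling to GAPDH, 25.3% with scaling to HPRT1 and 59.6% with library size only. Depth limits MEG3 and PLAGL1 most.

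Samples with the same replicate number did not deviate together (correlations of -0.37, -0.06 and -0.13), so the numbers were not taken to pair them. With the replicate block 6 of the 10 genes were called, 4 higher and 2 lower, and 7560 of all tested genes in place of 8653. NDN, SETDB1 and DNMT1 lost their calls under the block.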
